A study of Mus musculus with 12 samples.

Results

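The genes of sulfur amino acid metabolism that make, pass on and remove hydrogen sulfide were followed in mouse lung endothelial cells (MLECs). The cells came from mice with and without induced endothelial deletion of the transcription factors Sp1 and Sp3. The set held 10 genes of the 28689 in the deposited table, namely Mat2a, Ahcy, Mtr, Cbs, Cth, Mpst, Sqor, Ethe1, Cdo1 and Csad, and all 10 were found there. Cth was picked because its FPKM was far lower in knockout than in control MLECs, and the 9 others were picked as its pathway with the same comparison in view. Differences of these 10 genes between the groups are therefore given as a description with no p, and how many of them passed the threshold used for all genes is printed once, beside the share of all genes that did, with nothing read from it. CTR libraries came from adult VE-CAD-CreERT2-/Sp1 fl/fl/Sp3 fl/fl littermates, whose genotype the sample labels give as WT, and dKO libraries from adult VE-CAD-CreERT2+/Sp1 fl/fl/Sp3 fl/fl mice. Both groups were injected with tamoxifen, so floxed alleles and the drug are common to both groups and only dKO mice carry Cre, driven by the VE-cadherin promoter and so active in cells that use it. Each group held 6 libraries of cultured cells taken from digested lung with CD31 beads and, after growth to confluency, with beads against intercellular adhesion molecule 2. How many mice stand behind a library is not given, so p-values measure the spread between these libraries, which may be partly technical.

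Methionine is activated to S-adenosylmethionine, gives up its methyl group and is left as homocysteine, which is either methylated back to methionine or sent down the transsulfuration route to cysteine. The transsulfuration enzymes, with a mercaptopyruvate route beside them, also release hydrogen sulfide, a gas that relaxes blood vessels and for which Cth is the best known source in endothelium. Mitochondria oxidise sulfide, and cysteine that is not used for protein or glutathione is oxidised towards taurine.

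Sp1 and Sp3 are known to bind GC boxes, so promoters of the set were read for this motif. Sequences came from RefSeq on GRCm38.p6, an older build than the GRCm39 (mm39) used for gene positions here, and cover the 250 bases before each annotated start. Of the 10 genes, 8 were matched, with 12 promoters between them, and Cth and Cdo1 were not. The motif was GGGCGG or, on the other strand, CCGCCC, and overlapping matches were each counted. Of the 32851 promoters in the table, 32.7% held at least 1 match, 16.7% held at least 2 and 8.47% at least 3. In the set, 7 of the 12 promoters and 6 of the 8 matched genes held at least 1. The 32.7% counts promoters, and no share per gene was computed, so the count of genes has no background beside it. Printed are 4 of these promoters, 5′ to 3′ with the matches in capitals. Cbs, Ahcy and Mtr are the genes beside Cth whose dKO values all lay below the CTR values, and Mat2a is shown beside them because it held 3 matches and its values overlapped between the groups.
Cbs: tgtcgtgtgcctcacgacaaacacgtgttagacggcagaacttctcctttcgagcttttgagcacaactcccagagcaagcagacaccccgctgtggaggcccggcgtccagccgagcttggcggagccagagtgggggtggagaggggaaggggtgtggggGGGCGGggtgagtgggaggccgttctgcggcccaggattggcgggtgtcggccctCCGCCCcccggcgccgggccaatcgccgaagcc
Ahcy: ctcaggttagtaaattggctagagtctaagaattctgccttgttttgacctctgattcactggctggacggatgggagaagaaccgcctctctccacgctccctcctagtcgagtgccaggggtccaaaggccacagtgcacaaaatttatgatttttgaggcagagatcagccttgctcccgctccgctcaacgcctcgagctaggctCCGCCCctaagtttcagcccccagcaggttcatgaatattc
Mtr: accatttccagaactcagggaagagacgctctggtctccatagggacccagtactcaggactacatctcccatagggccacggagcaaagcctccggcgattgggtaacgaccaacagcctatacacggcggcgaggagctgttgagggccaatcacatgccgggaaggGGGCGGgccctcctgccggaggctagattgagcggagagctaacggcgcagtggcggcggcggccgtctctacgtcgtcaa
Mat2a: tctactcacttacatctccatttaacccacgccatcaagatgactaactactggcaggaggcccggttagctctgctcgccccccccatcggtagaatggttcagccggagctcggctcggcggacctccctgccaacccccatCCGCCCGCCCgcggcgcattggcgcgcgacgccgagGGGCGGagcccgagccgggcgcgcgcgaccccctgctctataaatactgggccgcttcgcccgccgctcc
All 4 lie on the minus strand, Cbs at chr17:31637206-31637455, Ahcy at chr2:155074498-155074747, Mtr at chr13:12258114-12258363 and Mat2a at chr6:72439557-72439806 of GRCm38.p6. The Cbs promoter held 2 matches, those of Ahcy and Mtr 1 each, and that of Mat2a 3, of which a pair overlaps. Ethe1 had 1 match in the first of its promoters and 3 in the other, Csad had 0 and 1, and the promoters of Mpst and Sqor had 0. A match is a string of letters and not a bound site.

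Values are FPKM, fragments scaled to gene length and to library total, which can be compared between genes. Depth was 15523054 to 17938286 fragments per library. On a gene of 2 kb a single fragment amounted to 0.0279 to 0.0322 FPKM. Differences are on the scale of log2(FPKM + 1), dKO minus CTR, with the standard error (SE) from limma over the 12467 genes that reached 1 FPKM in 6 or more libraries, and this scale understates the differences of low genes. All 10 genes of the set passed that filter. A gene is called here when its limma p, adjusted by Benjamini-Hochberg over all 12467 genes, is under 0.05. The median difference of all genes tested was −0.10, and −0.02 after median-of-ratios scaling, and differences are to be read relative to this shift.

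Sp1 and Sp3, the deleted genes, were both read as a check of the labels, and only Sp1 passed. Since 32.6% of all genes tested were called lower, a call of Sp1 alone is a weak check. Sp1 fell from 21.2 ± 1.77 to 10.6 ± 1.53 FPKM in dKO MLECs (SD, n = 6 each; difference −0.95, SE 0.09, adjusted p = 5.68e-06 from limma). Sp3, at 27.7 ± 2.31 in CTR and 25.0 ± 1.64 FPKM in dKO, did not pass (SD, n = 6 each; −0.14, SE 0.07, adjusted p = 0.0902 from limma), though it did without CTR replicate 6 (−0.18, adjusted p = 0.0326). The values cover each whole gene, so fragments of the floxed exons were not separated.

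Markers of several cell types differed between the groups beside the sulfur genes, and their part in the results was not tested. Summed endothelial markers were at 221 to 344 FPKM in CTR and 403 to 550 FPKM in dKO libraries, with 11 of 12 called higher in dKO by limma and defining markers such as Cdh5 and Pecam1 present in each library. Macrophage markers summed to 804 to 1350 FPKM in CTR and 2215 to 5013 FPKM in dKO (9 of 10 higher and Marco lower), and mesothelial markers to 28.8 to 38.6 and 66.3 to 146 FPKM (5 of 6 higher). Fibroblast markers went from 2193 to 2807 FPKM in CTR to 890 to 1754 FPKM in dKO. Of 9 tested, 1 was higher (Dcn) and 3 were lower (Col1a1, Col1a2 and Col3a1). These 3 collagens make up most of the sum, with Col1a1 at 1173 FPKM in CTR and 572 in dKO on average. Others were not called, such as Pdgfra (117 and 104 FPKM) and Pdgfrb (71.1 and 65.5 FPKM), and the median difference of the list was −0.18. Smooth muscle markers lay at 551 to 1469 and 477 to 880 FPKM (1 of 5 tested higher), and lung epithelial markers at 121 to 559 and 222 to 406 FPKM (2 of 8 higher). Hepatocyte markers were included because the liver is rich in these enzymes. Of the 4 listed, Apoa1 and Ttr were not in the table, and Alb and Cyp2e1 summed to at most 0.212 FPKM. Of all genes tested, 20.4% were called higher and 32.6% lower. In each library the fibroblast sum lay above the endothelial sum. The values in this report are therefore those of whole samples and cannot be assigned to endothelial cells alone. In such bulk samples, fewer cells of a type and less RNA per cell cannot be told apart.

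The first steps of the methionine cycle did not move together. Mat2a (ENSMUSG00000053907, chromosome 6, 72409779 to 72416684, minus strand), the catalytic subunit of the S-adenosylmethionine synthetase found outside the liver, ran from 5.48 FPKM over a median of 7.46 to 8.90 in CTR libraries. In dKO libraries it ran from 6.65 over 8.80 to 10.3 FPKM. The groups overlapped, with 3 dKO libraries above all CTR libraries, and the difference was 0.18 (SE 0.12). It shares its locus with Ggcx on the opposite strand, at 8.39 FPKM in CTR and 9.11 in dKO on average, and the use of strand in counting is not given.

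Ahcy (ENSMUSG00000027597, chromosome 2, 154901230 to 154916422, minus strand) splits S-adenosylhomocysteine, the product left by methylation, into homocysteine and adenosine. Its lowest, median and highest values were 33.8, 39.8 and 48.7 FPKM in CTR and 22.0, 25.6 and 31.7 FPKM in dKO. All dKO libraries lay below all CTR libraries, the dKO mean was 65.5% of the CTR mean and the difference was −0.60 (SE 0.11). The table also holds Ahcyl, which matches the Ahcy transcript at 99.7% identity over 2083 bases and stood at 14.1 FPKM in CTR and 8.61 in dKO, and Gm9826, at 2.35 and 1.62 FPKM, so the share of fragments that belongs to Ahcy is uncertain. With both copies added, CPM (fragments scaled to the library total only) was 146 ± 17.4 in CTR and 94.3 ± 14.2 in dKO (SD, n = 6 each), and the summed fragments were 2146 to 3058 against 1427 to 1798 per library.

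Mtr (ENSMUSG00000021311, chromosome 13, 12197598 to 12273090, minus strand), the vitamin B12 enzyme that methylates homocysteine back to methionine with a methyl group from folate, was at 5.68, 6.75 and 8.28 FPKM (lowest, median and highest) in CTR. It was at 2.86, 3.69 and 4.50 FPKM in dKO, again with each dKO library below each CTR library. The dKO mean was 54.0% of the CTR mean, a difference of −0.74 (SE 0.10).

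Transsulfuration showed the widest gap between the groups. Cbs (ENSMUSG00000024039, chromosome 17, 31827868 to 31856646, minus strand) joins homocysteine to serine and was the lowest gene of the set in both groups. In CTR it lay between 1.82 and 3.29 FPKM with a median of 2.55, on 106 to 192 fragments per library. In dKO it lay between 0.53 and 1.08 FPKM with a median of 0.655, on 30 to 65 fragments, without overlap. Its mean in dKO was 26.8% of that in CTR and the difference was −1.09 (SE 0.11), which grew to −1.77, −1.90 and −1.90 with pseudocounts of 0.1 and 0.01 FPKM and with limma-voom on recovered fragments.

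Cth (ENSMUSG00000028179, chromosome 3, 157599868 to 157630739, minus strand) splits the cystathionine that Cbs makes and so yields cysteine. It ran from 27.7 FPKM (CTR replicate 4) over a median of 54.7 to 86.4 FPKM (CTR replicate 6) in the controls, on 1348 to 4105 fragments. In dKO it stayed between 5.07 and 7.24 FPKM with a median of 5.51, on 241 to 355 fragments. No library of either group came near the other. Mean FPKM was 53.0 ± 19.97 in CTR and 5.89 ± 0.908 in dKO (SD, n = 6 each), 9.01 times lower, and the difference of −2.90 (SE 0.21) was undercut by 0.0160% of the genes tested. Over 20 other settings it lay between −3.10 and −2.74. The spread was wider among the controls, where the highest library was 3.13 times the lowest, than among dKO libraries, where it was 1.43 times. Gm43314, a gene model on the same strand, overlaps Cth and was at 0.848 FPKM in CTR and 0.0558 in dKO.

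Sulfide production beyond transsulfuration and its removal looked different. Mpst (ENSMUSG00000071711, chromosome 15, 78290384 to 78298215, plus strand) takes sulfur from 3-mercaptopyruvate and passes it on as persulfide and sulfide. It ran from 25.4 over 29.3 to 37.0 FPKM in CTR and from 20.2 over 24.3 to 29.7 FPKM in dKO, with overlap, 3 dKO libraries lying below all CTR libraries. The difference was −0.26 (SE 0.11), and −0.17 after median-of-ratios scaling. Mpst shares its locus with Tst, on the opposite strand, at 12.2 FPKM in CTR and 10.9 in dKO.

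Sqor (ENSMUSG00000005803, chromosome 2, 122606981 to 122651489, plus strand), the mitochondrial enzyme that takes sulfide up and hands its electrons to ubiquinone, had nearly the same values in both groups. They were 11.2, 12.8 and 14.8 FPKM (lowest, median and highest) in CTR and 11.0, 12.6 and 14.9 FPKM in dKO. Its difference was −0.01 (SE 0.08), or 0.07 after median-of-ratios scaling, so it has no fixed direction, and its ratio of means was 0.988.

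Ethe1 (ENSMUSG00000064254, chromosome 7, 24286968 to 24308350, plus strand), the persulfide dioxygenase that acts after Sqor, had a higher median in dKO than any control value. It lay at 8.95, 12.1 and 13.5 FPKM (lowest, median and highest) in CTR and at 10.9, 16.4 and 17.8 FPKM in dKO. In 5 dKO libraries it was above all CTR libraries, and dKO replicate 5, at 10.9 FPKM, stood among the controls. The difference was 0.41 (SE 0.12).

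**Figure D1:**
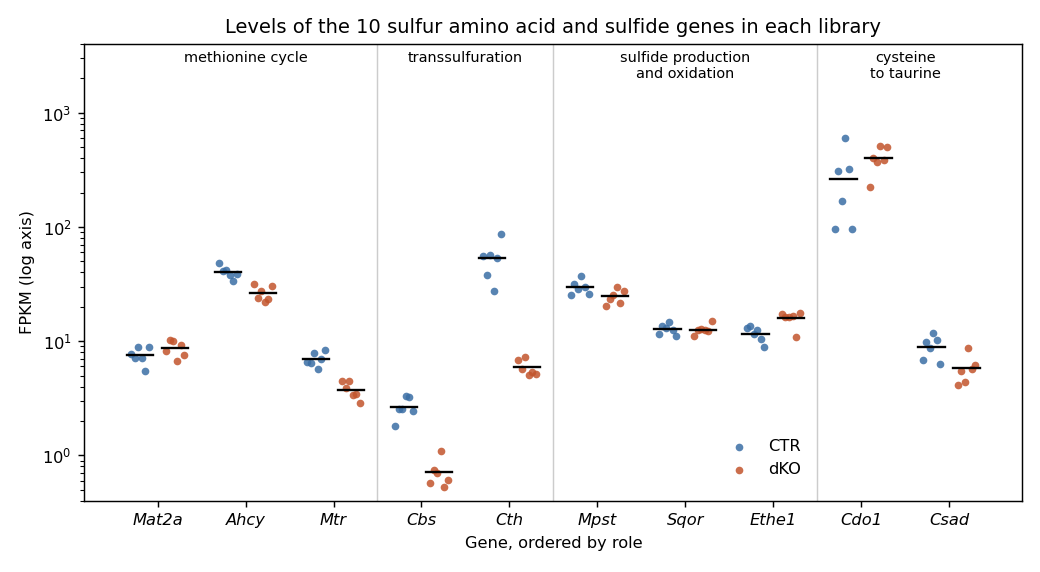
FPKM of the 10 genes (log axis) in the 6 CTR (blue) and 6 dKO (orange) libraries, 1 point per library, with a black bar at the group mean, ordered by role. Cth, Cbs, Mtr and Ahcy are the genes whose groups do not overlap, and Cdo1 spreads from 95.3 to 606 FPKM within CTR.

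Oxidation of cysteine rests on Cdo1 (ENSMUSG00000033022), on chromosome 18, which turns cysteine into its sulfinic acid, and on Csad, which removes the carboxyl group on the way to taurine. Cdo1 had the highest level of the set in both groups and the widest spread among the controls. Its CTR values ran from 95.3 FPKM (replicate 6) over 238 to 606 FPKM (replicate 4), a range of 6.36 times, and its dKO values from 223 over 393 to 510 FPKM, a range of 2.29 times. All dKO libraries lay within the range of the controls. The difference of 0.86 (SE 0.41) depended on single controls, being 0.63 without CTR replicate 1 and also without CTR replicate 6, and 1.16 without CTR replicate 4.

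Csad (ENSMUSG00000023044, chromosome 15, 102085432 to 102113498, minus strand) was at 6.28, 9.30 and 11.8 FPKM in CTR and at 4.10, 5.60 and 8.69 FPKM in dKO (lowest, median and highest). The groups overlapped only because dKO replicate 4, the highest of its group, lay above the lowest controls, and 5 dKO libraries were below all CTR libraries. The difference was −0.56 (SE 0.17). Its transcripts share 344 bases at 100% identity with the overlapping Zfp740 on the opposite strand, which was at 22.9 FPKM in CTR and 15.3 in dKO, so fragments on that stretch cannot be assigned.

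In all, 7 of the 10 genes were lower and 3 higher in dKO. Called were 6, against a background of 53.1% of all genes tested, 5 of them lower (Ahcy, Mtr, Cbs, Cth and Csad, background 32.6%) and 1 higher (Ethe1, background 20.4%). In 4 the groups did not overlap (Ahcy, Mtr, Cbs and Cth, background 27.4%). Since the genes were chosen on this comparison, nothing is read from these counts. The median difference of the set was −0.41.

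Ordered by mean level, the controls ran Cdo1, Cth, Ahcy, Mpst, Sqor, Ethe1, Csad, Mat2a, Mtr and Cbs. Among these neighbours, the ranges of Cdo1 and Cth, of Mpst and Sqor, and of Mtr and Cbs did not overlap, and the others did. In dKO libraries the order was Cdo1, Ahcy, Mpst, Ethe1, Sqor, Mat2a, Cth, Csad, Mtr and Cbs, with gaps between Cdo1 and Ahcy, Mpst and Ethe1, Sqor and Mat2a, and Mtr and Cbs. Cth thus stood 2nd of 10 in CTR and 7th in dKO, at the level of Csad, while Cdo1 stayed first and Cbs last.

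The 3 genes of the set whose enzymes can release sulfide, Cth, Cbs and Mpst, were set side by side. Their FPKM summed to 85.4 ± 16.4 (SD, n = 6) in CTR and 31.2 ± 3.53 (SD, n = 6) in dKO. Cth made up 60.4% ± 12.1 (SD, n = 6) of that sum in CTR, from 40.7% to 75.5%, and 19.1% ± 3.85 (SD, n = 6) in dKO. Mpst made up 36.4% ± 11.2 (SD, n = 6) and 78.6% ± 3.68 (SD, n = 6), and Cbs 3.22% ± 1.03 (SD, n = 6) and 2.25% ± 0.444 (SD, n = 6). Mean Mpst itself was 29.7 FPKM in CTR and 24.6 FPKM in dKO, so its larger share comes from the lower sum and not from a higher level. Cth was chosen for its lower level in dKO, so the shift in shares is a description. Transcripts do not give the activity of these enzymes.

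**Figure D2:**
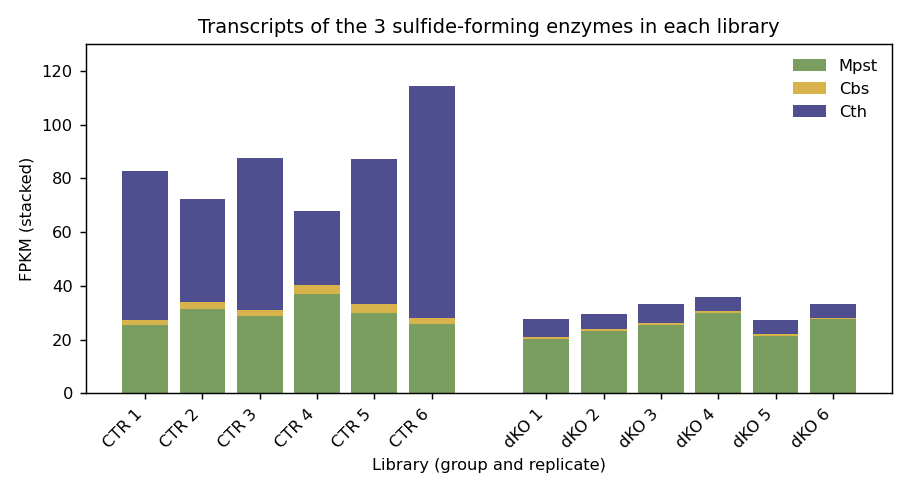
Stacked FPKM of Mpst (green), Cbs (yellow) and Cth (purple), from 0, in each CTR and dKO library. The stacks reach 68.0 to 115 FPKM in CTR and 27.3 to 35.9 FPKM in dKO, where most of each stack is Mpst. Mpst itself lies at 25.4 to 37.0 FPKM in CTR and 20.2 to 29.7 FPKM in dKO.

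Other genes of the pathway were taken from a list by role, 64 genes of which 62 were in the table and 56 were tested. The list was drawn up with earlier results of these data known. Genes named from it are mainly those called with the largest differences in each role, so their p-values are not an independent check. Of the 56, 5 rose and 25 fell in dKO and 26 were not called. That is 53.6% called, against 53.1% of all genes tested, with a median difference of −0.19. Of all genes tested, 20.4% rose and 32.6% fell, and the counts by role are to be read beside these shares. After median-of-ratios scaling 7 of the 56 rose and 16 fell, beside 3213 higher and 3012 lower of all 12467 genes tested under that scaling.

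Around the methionine cycle 1 of 8 tested genes rose and 5 fell (75.0% called, against 53.1% of all genes tested). Mtrr, which reactivates the B12 cofactor of Mtr, fell from 8.41 ± 2.104 to 4.44 ± 1.61 FPKM (SD, n = 6 each; −0.81, SE 0.18, adjusted p = 0.00258 from limma). Mmachc, which processes vitamin B12 on its way to Mtr, fell by 0.52 (adjusted p = 0.0150 from limma) and Nnmt, a methyltransferase that uses S-adenosylmethionine on nicotinamide, by 0.41 (adjusted p = 0.00341 from limma). Mtr, Mtrr and Mmachc were thus all lower in dKO. Ahcyl2, a relative of Ahcy, rose by 0.30 from a CTR mean of 1.42 FPKM (adjusted p = 0.00227 from limma) and by 0.48 with a pseudocount of 0.01 or with limma-voom.

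In methionine salvage and polyamine synthesis, 4 of 9 tested genes fell and none rose (44.4% called, against 53.1% of all genes tested). Adi1, the acireductone dioxygenase of the route that salvages methylthioadenosine, fell from 32.8 ± 3.77 to 19.3 ± 2.48 FPKM (SD, n = 6 each; −0.74, SE 0.10, adjusted p = 4.79e-05 from limma). Mri1, an isomerase of the same route, fell by 0.44 (adjusted p = 0.00128 from limma). Amd1, the decarboxylase that turns S-adenosylmethionine towards polyamines, was at −0.35 (adjusted p = 0.0319 from limma). The call for Amd1 was lost in 10 of 20 other settings, at −0.35 to −0.26, among them leaving out CTR replicate 1, 3, 5 or 6 or dKO replicate 2, 4, 5 or 6, and 4 copies of it are in the table.

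Partners of sulfide production and oxidation were mostly not called, with 2 of 10 tested falling and none rising. That is a smaller share than the 53.1% called of all genes tested. Got1, the aspartate aminotransferase of the cytosol, which also turns cysteine into the 3-mercaptopyruvate that Mpst uses, fell from 39.1 ± 13.8 to 19.5 ± 3.68 FPKM (SD, n = 6 each; −0.92, SE 0.20, adjusted p = 0.00205 from limma). Selenbp1, the methanethiol oxidase, was at 43.7 ± 31.1 and 18.6 ± 6.73 FPKM (SD, n = 6 each; −1.01, SE 0.36, adjusted p = 0.0332 from limma). Its call was lost in 8 of 20 settings at −1.01 to −0.87, including those without CTR replicate 2 or 5 or dKO replicate 1, 2, 3 or 5.

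Towards taurine and sulfate, 1 of 5 tested genes rose and 1 fell (40.0% called, against 53.1% of all genes tested). Slc6a6, the taurine transporter, rose from 29.8 ± 3.84 to 47.4 ± 6.30 FPKM (SD, n = 6 each; 0.65, SE 0.10, adjusted p = 0.000177 from limma). Ado, which oxidises cysteamine to hypotaurine, was at −0.22 (adjusted p = 0.0240 from limma), and its call was lost after median-of-ratios scaling (−0.13) and without CTR replicate 1, 3 or 6 or dKO replicate 2 (−0.21 to −0.19).

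Cysteine supply and glutathione held the steepest changes of the list, with 3 rising and 7 falling of 14 tested (71.4% called, against 53.1% of all genes tested). Slc7a5, a light chain of the large neutral amino acid carrier that imports methionine, fell from 96.3 ± 17.5 to 16.7 ± 1.37 FPKM (SD, n = 6 each; −2.44, SE 0.11, adjusted p = 3.01e-08 from limma). Chac1, which degrades glutathione inside the cell, fell from 28.0 ± 5.35 to 6.17 ± 1.05 FPKM (SD, n = 6 each; −2.01, SE 0.13, adjusted p = 4.93e-07 from limma). Slc1a5, a carrier of glutamine and other neutral amino acids, fell by 1.72 (adjusted p = 1.43e-06 from limma). The cystine carrier Slc7a11 was at 3.98 to 5.32 FPKM in CTR and at 0.787 to 2.62 FPKM in dKO except in dKO replicate 5, where it was at 7.95 FPKM (−0.87, SE 0.30, adjusted p = 0.0280 from limma). Without that library the difference was −1.18, and the call was lost with no filter and without CTR replicate 3 or 6 or dKO replicate 2, 4 or 6 (−0.87 to −0.72, adjusted p up to 0.0645).

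In the other direction, Anpep, an aminopeptidase that cuts the dipeptide left from extracellular glutathione, rose from 3.05 ± 1.11 to 19.0 ± 5.74 FPKM (SD, n = 6 each; 2.30, SE 0.19, adjusted p = 1.80e-06 from limma). Ggt1, the enzyme that acts before it on glutathione, rose from 0.468 ± 0.171 to 1.94 ± 0.720 FPKM (SD, n = 6 each; 0.98, SE 0.14, adjusted p = 9.05e-05 from limma), and its difference was 2.05 with a pseudocount of 0.01. Gclc, the catalytic subunit of the first enzyme of glutathione synthesis, was at 45.3 ± 8.76 and 62.0 ± 15.4 FPKM (SD, n = 6 each; 0.43, SE 0.17, adjusted p = 0.0427 from limma). That call was lost in 10 of 20 settings, at 0.33 to 0.45, including those without CTR replicate 2, 4, 5 or 6 or dKO replicate 1, 2, 5 or 6.

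Among users of cysteine, 3 of 5 tested genes fell and none rose (60.0% called, against 53.1% of all genes tested). Cars1, which charges the cysteine transfer RNA of the cytosol, fell from 25.3 ± 4.34 to 13.4 ± 0.565 FPKM (SD, n = 6 each; −0.85, SE 0.10, adjusted p = 2.13e-05 from limma). Lyrm4 and Nfs1, of the mitochondrial complex that takes sulfur from cysteine for iron-sulfur clusters, fell by 0.28 and 0.22 (adjusted p = 0.0152 and 0.0148 from limma), and both calls were lost after median-of-ratios scaling (−0.21 and −0.14).

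Of the 5 regulators with known links to these genes, 3 fell and none rose (60.0% called, against 53.1% of all genes tested). Atf4, the transcription factor of the amino acid response, fell from 314 ± 55.0 to 173 ± 25.2 FPKM (SD, n = 6 each; −0.85, SE 0.12, adjusted p = 0.000124 from limma). Nfe2l2, the factor of the antioxidant response, fell from 79.2 ± 17.4 to 47.5 ± 3.44 FPKM (SD, n = 6 each; −0.70, SE 0.12, adjusted p = 0.000337 from limma). Hif1a, the oxygen-regulated factor, was at −0.49 (adjusted p = 0.0259 from limma), lost in 7 of 20 settings at −0.49 to −0.39, including those without CTR replicate 1, 3 or 6 or dKO replicate 3 or 6.

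**Figure D3:**
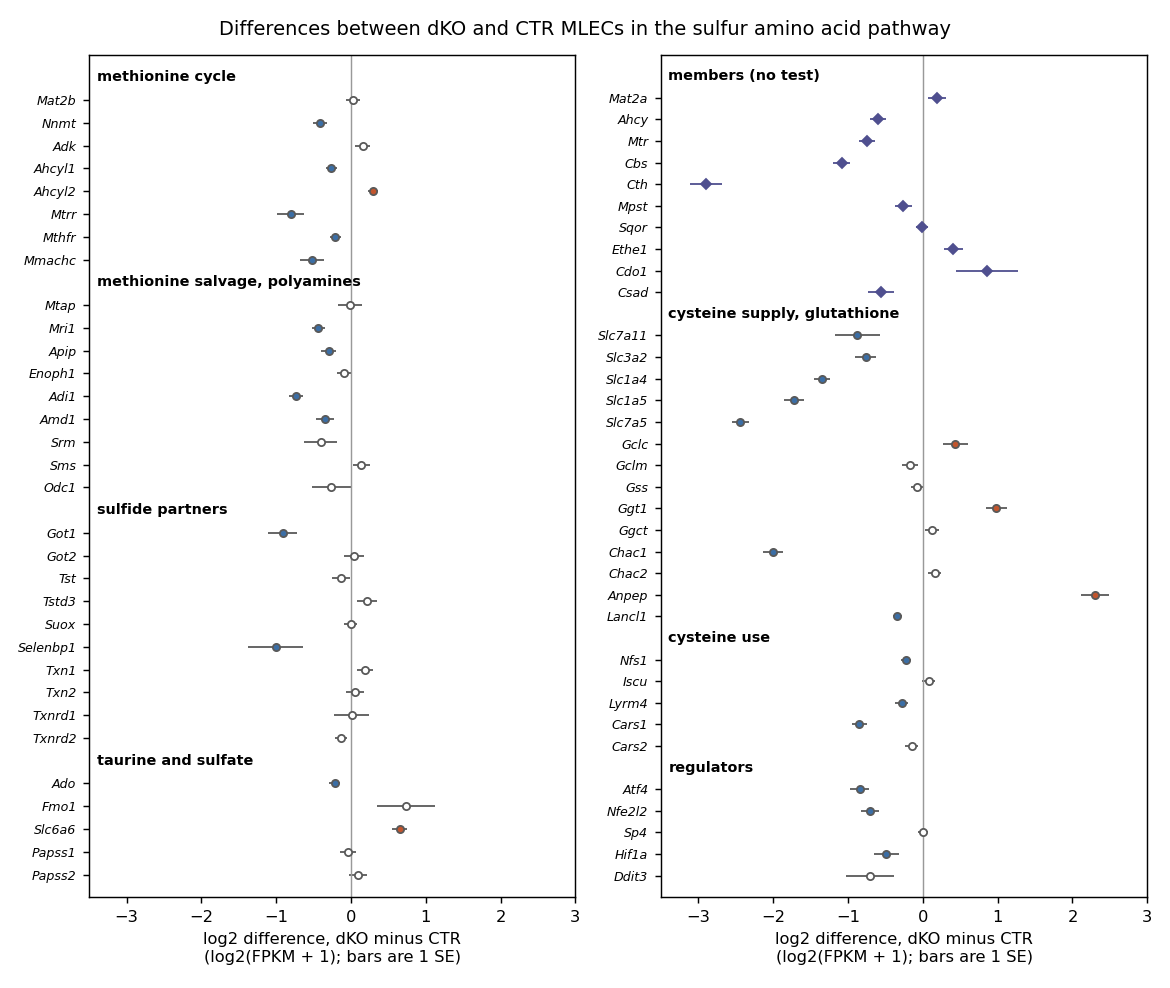
Differences on the log2(FPKM + 1) scale, dKO minus CTR, with bars of 1 SE, for the 56 tested genes of the pathway list (circles, by role) and for the 10 genes of the set (diamonds, no test). Filled orange and blue circles are called higher and lower and open circles are not called; Slc7a5 lies lowest at −2.44 and Anpep highest at 2.30.

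Within each group, Cth was set against each of the 9 others across the 6 libraries, a comparison that does not use the difference between the groups and that was chosen after the values were seen. Among the controls Cth went up with Mtr (Pearson r = 0.91, exact permutation p = 0.0153, Spearman rho = 0.94, exact permutation p = 0.0167) and down with Sqor (r = −0.92, exact permutation p = 0.0139, rho = −0.83, exact permutation p = 0.0583). It also went down with Mpst (r = −0.90), Cdo1 (r = −0.86) and Csad (r = −0.85). Among dKO libraries it again went with Mtr (r = 0.90, exact permutation p = 0.0111, rho = 0.89, exact permutation p = 0.0333) and against Csad (r = −0.86, exact permutation p = 0.0153, rho = −0.94, exact permutation p = 0.0167). Of the 18 relations, 7 had an exact two-sided Pearson p under 0.05, and 0 did after Benjamini-Hochberg adjustment (smallest adjusted p 0.0688 in exact permutation tests for Pearson and 0.1 for Spearman), so none passed.

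These relations rest in part on single libraries. Without the controls farthest from the median of Cth, replicates 4 and 6, r was 0.59 with Mtr, −0.69 with Sqor and −0.46 with Csad over the 4 left. Without dKO replicates 1 and 3 it was 0.73 with Mtr and −0.78 with Csad. Marker sums differed between the same controls. CTR replicate 4, lowest in Cth and highest in Cdo1, had the highest sums of lung epithelial (559 FPKM), endothelial (344 FPKM) and macrophage markers (1350 FPKM) and the lowest of smooth muscle markers (551 FPKM). CTR replicate 6, highest in Cth and lowest in Cdo1, had the lowest sum of macrophage markers (804 FPKM) and the highest of smooth muscle markers (1469 FPKM). Its lung epithelial and endothelial sums, 158 and 225 FPKM, were above those of CTR replicate 1, at 121 and 221 FPKM. In CTR replicates 4 and 6, fibroblast sums were 2797 and 2267 FPKM and mesothelial sums 29.7 and 34.8 FPKM, within the range of the other controls. Among fibroblast markers, Tcf21 was at 22.5 and 3.78 FPKM and Dpt at 43.0 and 1.60 FPKM in these replicates. Of that list only Postn was lower in CTR replicate 4, at 12.2 against 22.1 FPKM. The part of these markers in the relations was not tested.

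**Figure D4:**
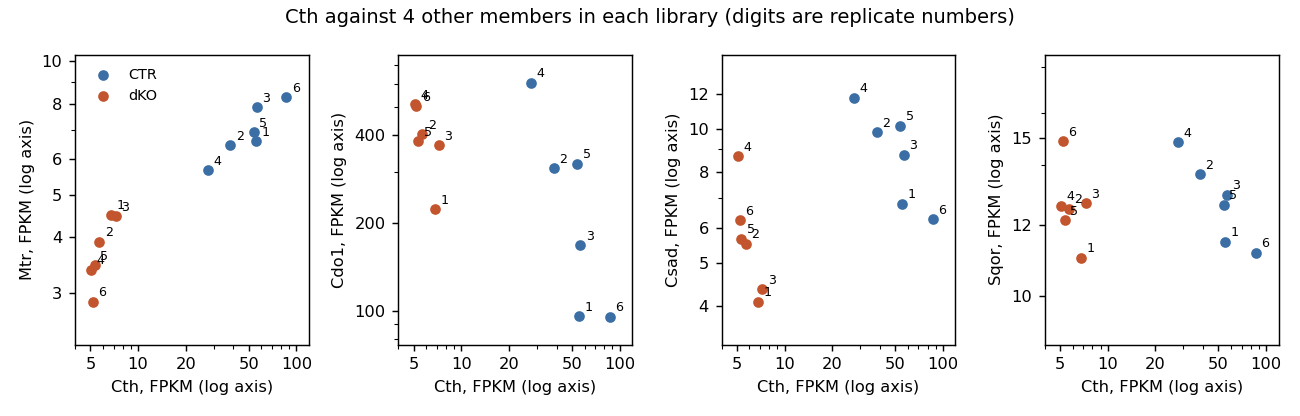
Cth (horizontal, FPKM, log axis) against Mtr, Cdo1, Csad and Sqor (vertical, FPKM, log axis) in the CTR (blue) and dKO (orange) libraries, numbered by replicate. Mtr climbs with Cth within both groups, and CTR replicates 4 and 6 mark the ends of the control points in each panel.

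The genes whose profile lay nearest to that of Cth over the 12 libraries, by root mean square distance of log2(FPKM + 1) after removal of each gene's mean, were Trib3 (0.26), Slc7a5 (0.30), Sh2d6 (0.34), Lrrc17 (0.36) and Hmgn2 (0.39). Since likeness to Cth chose them, their differences of −2.44, −2.44, −2.42, −2.68 and −2.97 are a description. Trib3, a pseudokinase, shared with Cth the order of its extremes among controls, from 63.1 FPKM in CTR replicate 4 to 184 FPKM in CTR replicate 6, and lay between 17.4 and 24.6 FPKM in dKO. Sh2d6, an adaptor protein, ran from 4.25 to 17.6 FPKM between the same controls and from 0.481 to 1.74 FPKM in dKO. For Hmgn2, a nucleosome-binding protein at 35.6 ± 6.34 and 3.65 ± 0.441 FPKM (SD, n = 6 each), 7 near-identical copies are in the table. Of these, Hmgn2-ps was at 16.2 FPKM in CTR and 12.8 in dKO, and Hmgn2-ps1 at 10.5 and 16.6 FPKM. The share of fragments that belongs to Hmgn2, and with it the size of its difference, is therefore uncertain. By the same distance the nearest of the set was Cbs, at rank 251 of the genes tested (1.02), followed by Mtr at rank 474 (1.11) and Ahcy at rank 1088 (1.21), while Cdo1 was at rank 12199 (2.16). This distance includes the difference between the groups, on which the set was chosen, so these ranks are a description. Within the groups Cbs did not go up with Cth (Pearson r = −0.47 in CTR and −0.30 in dKO).

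**Figure D5:**
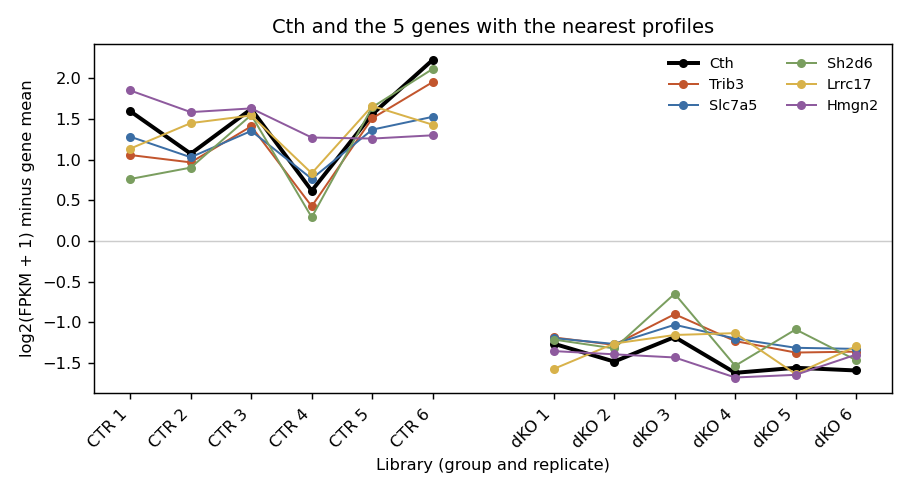
log2(FPKM + 1) minus the mean of each gene in the 6 CTR and 6 dKO libraries for Cth (thick black line) and the 5 genes nearest to it, with lines joining libraries only to guide the eye. CTR replicate 4 is the lowest control of Cth, Trib3, Slc7a5, Sh2d6 and Lrrc17.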

How the data were processed

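The authors used Trimmomatic for trimming and STAR for alignment to mm39, and realigned the uniquely aligned reads picked out by sambamba. The submitters' processing notes list Bowtie2 2.2.3, HISAT2 2.1.0, TopHat2 and DESeq2. The counting program, annotation and strand setting are not given in the sources used here. The extraction text of the labels names retinas, and lung MLECs were taken from the other labels and the study's methods. The knockout columns of the FPKM table deposited by the authors are named after tamoxifen and were matched to dKO by replicate number.

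For each of the 28689 genes a length was found that turned its 12 FPKM values into whole fragments (tolerance 0.001); these served for depth, copies and limma-voom only. Genes that reached 1 FPKM in 6 or more libraries were fitted as log2(FPKM + 1) with limma 3.58.1 (lmFit, eBayes with trend, R 4.3.3). The authors used DESeq2, which needs counts. Fits were tested on simulated data. Symbols and positions came from GENCODE on GRCm39 (27706 genes, 96.6%, matched). Copies were sought with BLAST 2.17.0 (95% identity, 150 bases, 50% of the copy). Alternatives were pseudocounts of 0.1 and 0.01 FPKM, filters of none and of 5 FPKM, TPM, median-of-ratios scaling, limma-voom, the replicate block and leaving out each library.

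Members and lists were chosen with earlier results of these data known. Named are the set, Sp1, Sp3, Atf4, Nfe2l2, Slc7a11, up to 3 called genes per role and direction with the largest difference, and the 5 genes nearest to Cth.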

Additional observations from a re-analysis of the deposited data

Results flagged for a closer look

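In 9 of 80 groups of 6 values, 1 library stood apart from the others of its group by Dixon's test, which chance gives in about 1 in 20 groups. All 9 were dKO libraries. In dKO replicate 5, Ethe1 was at 10.9 FPKM (16.3 to 17.8 FPKM in the others), Slc7a11 at 7.95 FPKM (0.787 to 2.62) and Hif1a at 70.7 FPKM (43.6 to 52.9). In dKO replicate 1, Atf4 was at 222 FPKM (151 to 176), Amd1 at 23.7 FPKM (18.01 to 19.7) and Ggt1 at 3.34 FPKM (1.47 to 2.05). In dKO replicate 3, Anpep was at 30.4 FPKM (14.9 to 18.6) and Trib3 at 24.6 FPKM (17.4 to 19.98). Cars1 was at 12.4 FPKM in dKO replicate 4 (13.4 to 14.0).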

How the results depend on the processing

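Of 12467 genes tested, 6614 were called (2549 higher and 4065 lower, 38.5% higher). With a filter of at least 5 FPKM, 7891 genes were tested and 4222 called (1708 higher and 2514 lower), fewer because fewer were tested. Median-of-ratios scaling gave 3213 higher and 3012 lower (51.6% higher). Leaving out a library gave 5858 genes (without CTR replicate 3) to 6841 (without CTR replicate 4). For Sp3 it gave −0.18 to −0.11, with −0.18 past the threshold without CTR replicate 6; the cause was not tested. For genes of low level the pseudocount moved the difference, that of Cbs being −1.77 and −1.90 with 0.1 and 0.01 FPKM, −1.90 with limma-voom and −1.59 as TPM. Of the 30 genes outside the set that the naming rule gave, 9 changed a call in some alternative and 0 changed direction. In the set, Sqor ran from −0.06 to 0.07, and the others kept their direction in each alternative that tested them. Since these genes were chosen on this comparison, that is a description. Pathway list calls ranged from 23 to 32.

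The replicate block gave 6955 genes. Deviations of same-numbered libraries correlated at 0.44, 0.16, −0.04, 0.57, 0.01 and −0.11, and 2 of 6 controls matched their own number best, so the numbers were not taken as pairs. Genes on few fragments, such as Cbs with 30 to 65 per dKO library, are the least precise.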
